A study of Mus musculus with 4 samples.

Results

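Pnldc1, Parn and Toe1 are the mouse genes of the PARN family of 3′ exonucleases, and this account follows these 3 genes, selected by their gene names among the 23922 genes of a deposited comparison of E14 mouse embryonic stem cells. The cells had been transfected with esiRNA, a mixture of siRNAs made enzymatically from long double-stranded RNA, directed at PNLDC1 in 2 libraries or at LUC (luciferase, a reporter that mouse cells lack) in 2 control libraries. Both groups were grown with leukemia inhibitory factor on gelatin and differ in the labels only by the esiRNA. E14 is a single established line, and the labels do not say where in Pnldc1 the esiRNA lies. They also do not say whether replicate libraries are separate cultures, so the spread behind each p-value may be technical. The authors' deposited table gives 1 value per gene in each of 2 conditions called q1 and q2. No label or header ties q1 or q2 to an esiRNA, so no difference below has a silencing direction, and no value has an SD.

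Enzymes of this family remove adenosines from RNA 3′ ends and use a DEDD active site, named after the 4 acidic residues that hold the catalytic metal ions. PARN is a nuclear and cytoplasmic poly(A)-specific ribonuclease that, in human cells, trims oligo(A) tails from telomerase RNA and other H/ACA-class RNAs. TOE1, a protein of Cajal bodies, matures the 3′ ends of spliceosomal small nuclear RNAs in human cells. PNLDC1 trims the 3′ ends of piRNA precursors in the mouse male germ line, and in mouse it is known for expression in testis and embryonic stem cells.

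The codons for these acidic residues mark what the 3 genes share, and they are shown with a few flanking codons on each side. All 3 genes lie on the minus strand of GRCm38. The sequences come from the GENCODE M21 transcript of the CCDS-tagged coding isoform of each gene, are written in the sense of the mRNA, and have the codons of the acidic residues in capitals. Codons are counted from 1 at the start codon. The first motif holds an aspartate and a glutamate codon, codons 28 and 30 in Pnldc1 and in Parn and codons 64 and 66 in Toe1.
Pnldc1: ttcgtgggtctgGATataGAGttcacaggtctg
Parn: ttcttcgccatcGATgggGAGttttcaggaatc
Toe1: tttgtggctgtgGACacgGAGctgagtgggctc
In each gene this window crosses an exon junction, from exon 1 to exon 2 in Pnldc1 (chr17:12909494-12909842) and from exon 2 to exon 3 in Parn (chr16:13665977-13667561) and in Toe1 (chr4:116806512-116806634). Pnldc1 shared 19 of the 33 bases with Parn and 21 with Toe1, and Parn shared 17 with Toe1.

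The second motif holds an aspartate codon, codon 271 in Pnldc1 (exon 10), codon 285 in Parn (exon 13) and codon 195 in Toe1 (exon 6).
Pnldc1: aacatgatgatgGACctactgcatctccat
Parn: aacatgctcttgGATgtcatgcatacgatt
Toe1: aatggccttataGACttggtgttcctgtac
The windows lie at chr17:12897286-12897315, chr16:13640280-13640309 and chr4:116805638-116805667. Of the 30 bases, 18 were the same in Pnldc1 and Parn, 14 in Pnldc1 and Toe1 and 11 in Parn and Toe1.

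The last motif holds the fourth acidic codon, an aspartate, codon 365 in Pnldc1 (exon 14), codon 375 in Parn (exon 17) and codon 444 in Toe1 (exon 8).
Pnldc1: gaagcagcctatGACgctttcctctgcggg
Parn: gaggcggggtacGATgcctacatcacaggg
Toe1: cgtgctggttttGACgcctttatgacaggc
These windows lie at chr17:12892324-12892353, chr16:13626145-13626174 and chr4:116804624-116804653. The spacing differed between the genes: the second and the last motif were 94 codons apart in Pnldc1 and 90 in Parn, but 249 in Toe1, while the first and second were 241, 255 and 129 codons apart. The spacing of Pnldc1 is closer to that of Parn than to that of Toe1.

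**Figure D1:**
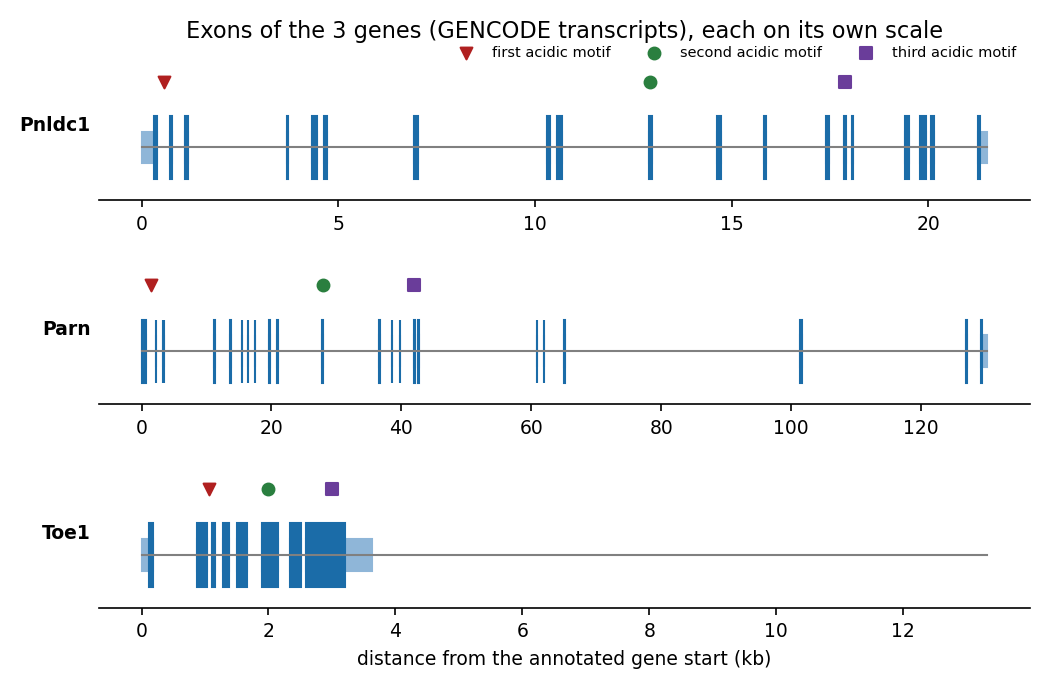
Exon maps of the same transcripts of Pnldc1, Parn and Toe1, drawn by distance from the annotated gene start in kb, each on its own scale; dark blocks are coding, light blocks untranslated, the grey line is the annotated gene, and the symbols mark the 3 acidic motifs. Pnldc1 has 19 exons, Parn 24 and Toe1 8, and the line of Toe1 runs past its last exon because other annotated transcripts reach further.

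Pnldc1 (ENSMUSG00000073460.5) spans 21502 bases of chromosome 17 from 12888729 to 12910230, and its transcript of 2092 bases holds 531 codons. Parn (ENSMUSG00000022685.9) spans 130211 bases of chromosome 16 from 13537960 to 13668170, with a transcript of 2906 bases and 624 codons. Toe1 (ENSMUSG00000028688.13) spans 13331 bases of chromosome 4 from 116794310 to 116807640, with a transcript of 2090 bases and 511 codons. No pair of the 3 transcripts aligned to each other in a nucleotide search, so reads of these genes are not shared between them. In Pnldc1 the first 145 bases of the transcript, all in the 5′ UTR and 6.93% of its length, aligned at 90% identity or more over at least 100 bases to transcripts of 1642 other genes, as a repeat would. Parn and Toe1 had no such alignment. Genes that overlap a member in the genome, such as Tesk2 with Toe1, were left out of this search.

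All 3 genes were expressed in these cells. Here and below, every level, p and q is a value of the authors' deposited table, and levels are taken as FPKM, a level per length, so that genes can be compared. Toe1 was the highest, at 42.2 in q1 and 40.8 in q2. Parn had 26.0 in q1 and 21.7 in q2. Pnldc1, the target of the esiRNA, had 18.1 in q1 and 26.8 in q2. The order was thus Toe1, Parn, Pnldc1 in q1 and Toe1, Pnldc1, Parn in q2, so Pnldc1 and Parn stood in opposite order. The level of Parn was 1.43 times that of Pnldc1 in q1 and 0.810 times in q2, a difference of 0.82 between their log2 ratios. Whether neighbours in this order differ beyond replicate error was not tested, because single libraries have no values of their own here.

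Against the 5719 genes that the authors tested, the 3 were of middling to low level. In q1, 21.1% of tested genes had a lower value than Pnldc1, 39.7% a lower value than Parn and 60.0% a lower value than Toe1. In q2 these shares were 39.8%, 29.6% and 57.1%. Over all genes of the table, silent ones included, Pnldc1 stood above 81.1% in q1 and 85.5% in q2. The summed level of the family was similar in both conditions, 86.3 in q1 and 89.3 in q2.

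At a q under 0.05 in the authors' Cuffdiff test none of the 3 genes passed, and none had an unadjusted p under 0.05. Of all tested genes 4.25% passed (243 of 5719) and 18.8% had an unadjusted p under 0.05, so a count of 0 among 3 is not set apart from that background. Pnldc1 was 1.48-fold higher in q2 than in q1 in the authors' deposited table (log2 ratio 0.56, Cuffdiff p = 0.118, q = 0.399). In the same table of the authors, the deposited values of Parn gave a log2 ratio of -0.26 (Cuffdiff q = 0.630) and those of Toe1 of -0.05 (Cuffdiff q = 0.935). The absolute log2 ratio of Pnldc1 exceeded that of 80.8% of tested genes with a value in both conditions, that of Parn 47.1% and that of Toe1 9.25%. Of the tested genes 29.6% had a smaller p than Pnldc1.

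The deposited p-values also give a range for each ratio, which depends on how they are read. Across tested genes the normal score of the deposited p was a near-constant multiple of the deposited test statistic (median 1.42, 5th to 95th percentile 1.34 to 1.47, over 5172 genes). Each p was read as a normal error on the log2 ratio. The smaller test statistic, read as the score in its place, would give a larger error and wider intervals, which were not computed. The 95% interval of the q2 over q1 ratio was then 0.905 to 2.42 for Pnldc1, 0.581 to 1.20 for Parn and 0.679 to 1.37 for Toe1. For Pnldc1 RNA, a level in q1 more than 58.6% below that in q2, or a level in q2 more than 9.47% below that in q1, lay outside this interval. The standard error implied for the log2 ratio was 0.36 for Pnldc1, 0.27 for Parn and 0.26 for Toe1. These intervals rest on the error that Cuffdiff estimated from 2 libraries a group.

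Depth was lowest for the target. If the values are FPKM, their low steps match a total of about 1210000 fragments for q1 and 1400000 for q2, and Pnldc1 then corresponds to about 45.9 reads in q1 and 78.6 in q2. Parn had about 91.3 and 88.4, and Toe1 about 107 and 119. Counting error alone is then near 14.8% and 11.3% for Pnldc1, 10.5% and 10.6% for Parn, and 9.68% and 9.16% for Toe1. Among the 3438 tested genes whose mean value was within 2-fold of that of Pnldc1, 76 passed (2.21%), and the smallest difference among those with a value in both conditions was 1.48-fold (absolute log2 ratio 0.57). That smallest difference is a minimum over the whole 2-fold window and not a cut-off, and the difference of Pnldc1 lay below it. Of the genes nearest to Pnldc1 in both values, Paxip1 and Foxd3 had larger log2 ratios, 0.60 and 0.62. Neither of them passed (Cuffdiff q = 0.0894 and 0.257). Around the level of Toe1 84 of 2991 genes passed (2.81%), and the smallest difference was 1.43-fold.

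**Figure D2:**
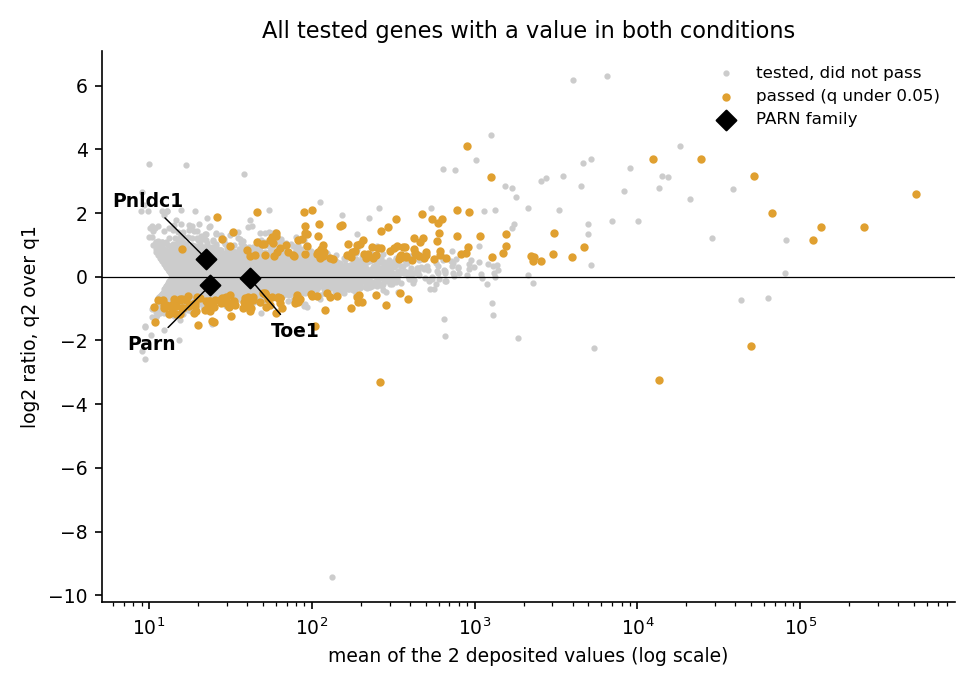
The log2 ratio of q2 over q1 against the mean of both deposited values (log scale) for the 5654 tested genes with a value in both conditions; orange points have a q under 0.05 and black diamonds are the PARN family. Pnldc1, Parn and Toe1 lie at 0.56, -0.26 and -0.05, inside the grey cloud of genes that did not pass.

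Genes close to each member in the pair of log2 values, over 5254 tested protein-coding genes and 2 conditions, were as follows. Nearest to Pnldc1 were Chchd5 (18.3 in q1 and 26.7 in q2), Paxip1 (18.1 and 27.5), which encodes a protein of histone methyltransferase complexes and of the DNA damage response, and Foxd3 (17.9 and 27.6), a transcription factor of pluripotent cells, at distances of 0.01, 0.04 and 0.04 log2 units. Close to Parn were Ino80, a chromatin remodeller, and E2f3, a cell cycle transcription factor, both at a distance of 0.02. Nearest to Toe1 were Shcbp1, Map4 and Wrb, at 0.02 to 0.03. None of these named genes passed the authors' Cuffdiff test, and with 2 conditions this likeness is no more than a similar level and ratio.

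Neighbouring and overlapping genes bear on what the values measure, since the sources used here do not say whether counting used strand. Toe1 overlaps Tesk2 on the opposite strand, and Tesk2 exons cover 881 of the 2090 exon bases of the Toe1 transcript. Tesk2, which encodes a protein kinase, was listed at 12.5 in q1 and 10.1 in q2 and was not tested. Mutyh, a DNA repair glycosylase, starts 82 bases from Toe1 in the opposite direction and had 14.0 and 12.5 (log2 ratio -0.16, Cuffdiff q = 0.870). Both had lower values than Toe1 in each condition.

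Pnldc1 holds the antisense gene AL589878.1, whose exons cover 144 of its 2092 exon bases. No deposited value was found under the name AL589878.1. The nearest coding neighbour of Pnldc1, Mrpl18, a mitochondrial ribosomal protein gene 1118 bases away on the same strand, had 77.7 in q1 and 123 in q2 (log2 ratio 0.66, Cuffdiff q = 0.130). Mrpl18 and Pnldc1 thus had ratios on the same side, and neither passed. On the other side Mrgprh was listed at 0 in both conditions. Bfar, 3687 bases from Parn, had 9.86 and 9.48 and was not tested.

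The other genes listed as catalytic deadenylases give the scale of the family's levels. Whether each listed gene has this activity was not tested. Among the 12 genes so listed Toe1 ranked first by level in both conditions. Pnldc1 ranked 8 in q1 and 4 in q2, and Parn 4 in q1 and 6 in q2. Of the 9 listed genes outside the family 7 were tested and 0 passed the Cuffdiff test, with 2 at an unadjusted p under 0.05 (background 4.25% and 18.8%). These 2 were lower in q2: Cnot7, with 18.9 and 9.69 (log2 ratio -0.96, Cuffdiff q = 0.213), and Cnot6, with 24.0 and 15.5 (-0.63, Cuffdiff q = 0.258). Next to Toe1 in level were Ccrn4l, which encodes nocturnin, with 36.8 in q1 and 33.2 in q2, and Cnot8, a CCR4-NOT catalytic subunit, with 36.3 and 30.8. Pde12, which removes poly(A) in mitochondria, had 21.5 and 25.6 and was, with Pnldc1, the only tested gene of the 12 whose value was higher in q2. Over the 7 the median log2 ratio was -0.23, against 0.06 over all tested genes.

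**Figure D3:**
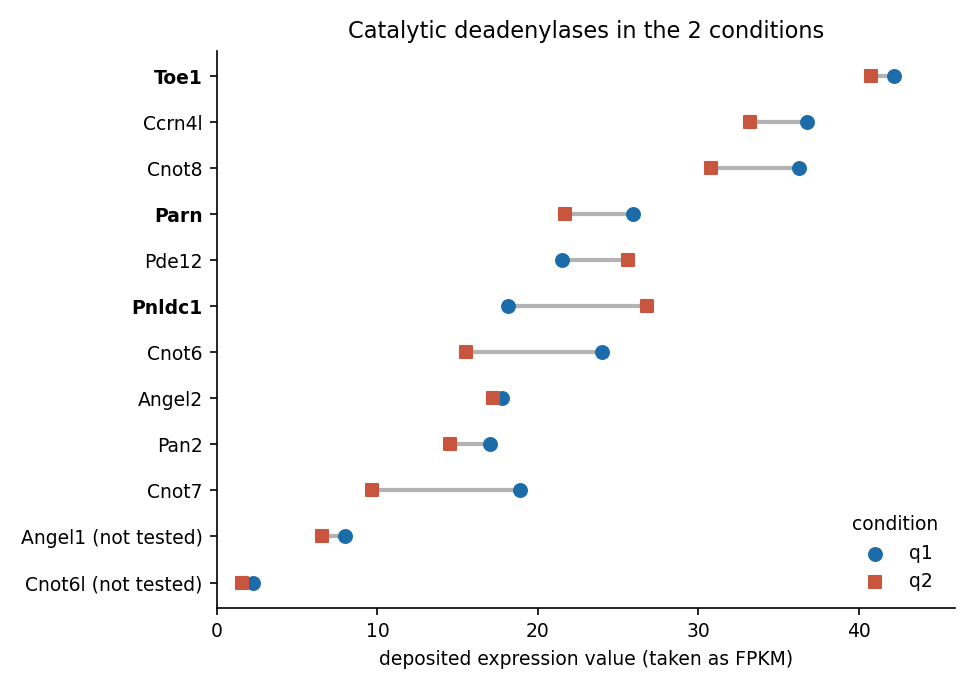
Deposited expression value (taken as FPKM, x axis) of each of the 12 genes listed as catalytic deadenylases in q1 (blue circles) and q2 (red squares), ordered by mean, with the PARN family in bold. Toe1 is rightmost at 42.2 and 40.8, and the points of Pnldc1 at 18.1 and 26.8 cross those of Parn at 26.0 and 21.7.

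Other exonucleases with a DEDD active site ranged from 0 to 74.8 in the deposited values, with Trex2 listed at 0 in both conditions and Isg20 in q1. Of 15 in the list 8 were tested and 0 passed the Cuffdiff test, with 1 at an unadjusted p under 0.05, against a background of 4.25% and 18.8%. The highest were Rexo2, a mitochondrial oligoribonuclease (63.6 in q1 and 74.8 in q2), Aen, a p53-induced nuclease (59.7 and 71.0), and Exosc10, the nuclear exosome exonuclease (53.5 and 60.3). Pnldc1 and Parn were lower than these 3 genes in both conditions, and so was Toe1. The median log2 ratio of the 8 tested was 0.16. Eri3, the gene with an unadjusted p under 0.05, had 31.2 in q1 and 53.9 in q2 (log2 ratio 0.79, Cuffdiff q = 0.187).

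The RNAs of most factors that PNLDC1 works with in the germ line were lower than Pnldc1 or listed at 0. Of the 19 other genes of piRNA trimming and loading, 18 had a lower value than Pnldc1 in both conditions. Tdrkh, which recruits PNLDC1 to piRNA intermediates in mouse, was listed at 0 in q1 and 2.87 in q2. The RNAs of the PIWI proteins, which bind piRNAs, had low values, with Piwil2 at 2.82 and 3.09, Piwil1 at 0.620 and 0.343, and Piwil4 at 0.590 and 1.08. Tdrd12, a tudor protein of the piRNA pathway, was the exception, with 24.2 in q1 and 31.7 in q2 (log2 ratio 0.39, Cuffdiff q = 0.534), above Pnldc1 in each condition. It was the only tested member, and the highest value among the 18 untested ones was 11.2. So 0 of 1 tested member passed the Cuffdiff test, also at an unadjusted p under 0.05.

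Over all lists 2 genes passed, Terc and Trp53, where 4.25% of all tested genes passed. They are given here and in the next paragraph, with other RNAs and proteins around PARN. The list of H/ACA RNA and telomerase RNA maturation was chosen with earlier results of these data known, so nothing is read from its count. Of its 12 tested genes, 1 was higher in q2 and 0 in q1 (background 2.31% and 1.94%). That gene was Terc, the telomerase RNA itself, which the authors' deposited table gives at 287 in q1 and 670 in q2 (log2 ratio 1.22, Cuffdiff q = 0.00367; chromosome 3, 96414437 to 96414859, minus strand). Terc is annotated at 423 bases, above the 200 nt below which RNA was depleted. Most other small non-coding RNA genes lay on the same side: 73 had a test, and 66 of these had a higher value in q2. These 66 include genes at 0 in q1, and the lengths of the 73 were not set against the 200 nt limit. Of the 73, 8 passed as higher in q2 and 0 as higher in q1 (background 2.31% and 1.94%), and 65 did not pass. Their median log2 ratio was 2.09 over the 55 with a value in both conditions, and the part of that difference in Terc was not tested. The protein-coding genes of the list did not pass, and in all 4 of the 12 tested genes had an unadjusted p under 0.05, Terc included (background 18.8%). Nop10 and Nhp2, which encode core proteins of H/ACA particles, had higher values in q2, 212 and 319 for Nop10 (log2 ratio 0.59, Cuffdiff q = 0.0832) and 326 and 444 for Nhp2 (0.45, Cuffdiff q = 0.181). Gar1, of the same list, went the other way, with 67.0 and 50.9 (-0.40, Cuffdiff q = 0.433). Tgs1, a cap trimethylase of small nuclear RNAs, had 21.3 and 13.6 (-0.65, Cuffdiff q = 0.155). Papd5, the poly(A) polymerase whose tails on telomerase RNA PARN removes in human cells, had 22.6 in q1 and 17.4 in q2 (log2 ratio -0.37, Cuffdiff q = 0.398). Dkc1, the pseudouridine synthase dyskerin, had 105 and 87.2 (-0.26, Cuffdiff q = 0.452). The median log2 ratio of the 12 was 0.11, with 7 genes higher and 5 lower in q2.

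Among 4 mRNAs reported as PARN targets, 3 were tested and 1 passed, as higher in q2 (background 2.31%), and 2 had an unadjusted p under 0.05 (background 18.8%). The list was drawn up with the result of Trp53 in these data known, so nothing is read from its count. Trp53, whose mRNA PARN destabilises in human cells, stood in the authors' deposited table at 190 in q1 and 283 in q2 (log2 ratio 0.58, Cuffdiff q = 0.0104; chromosome 11, 69580359 to 69591873). The log2 ratio of Trp53 was close to the 0.56 of Pnldc1, which has a lower level and did not pass. Gadd45a, a p53 target, had 22.0 and 40.5 (0.88, Cuffdiff q = 0.182), and Myc had 71.2 and 75.2 (0.08, Cuffdiff q = 0.857).

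Genes of small nuclear RNA 3′ end formation and assembly, the pathway of TOE1, had log2 ratios on both sides of 0, 14 higher and 13 lower in q2. Of 28 genes 27 were tested and 0 passed the Cuffdiff test, with 1 at an unadjusted p under 0.05 (background 4.25% and 18.8%), and a count of 0 is near that background. Their median log2 ratio was 0.01, within a range of -0.63 to 0.62. Cpsf3l, the catalytic subunit of the Integrator complex that cleaves small nuclear RNA precursors, had 72.6 in q1 and 76.0 in q2. Gemin4 and Gemin6, of the SMN complex that assembles the particles, had 79.1 and 78.2, and 68.0 and 80.1. Coil, which encodes the Cajal body protein coilin, had 33.6 and 35.3.

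**Figure D4:**
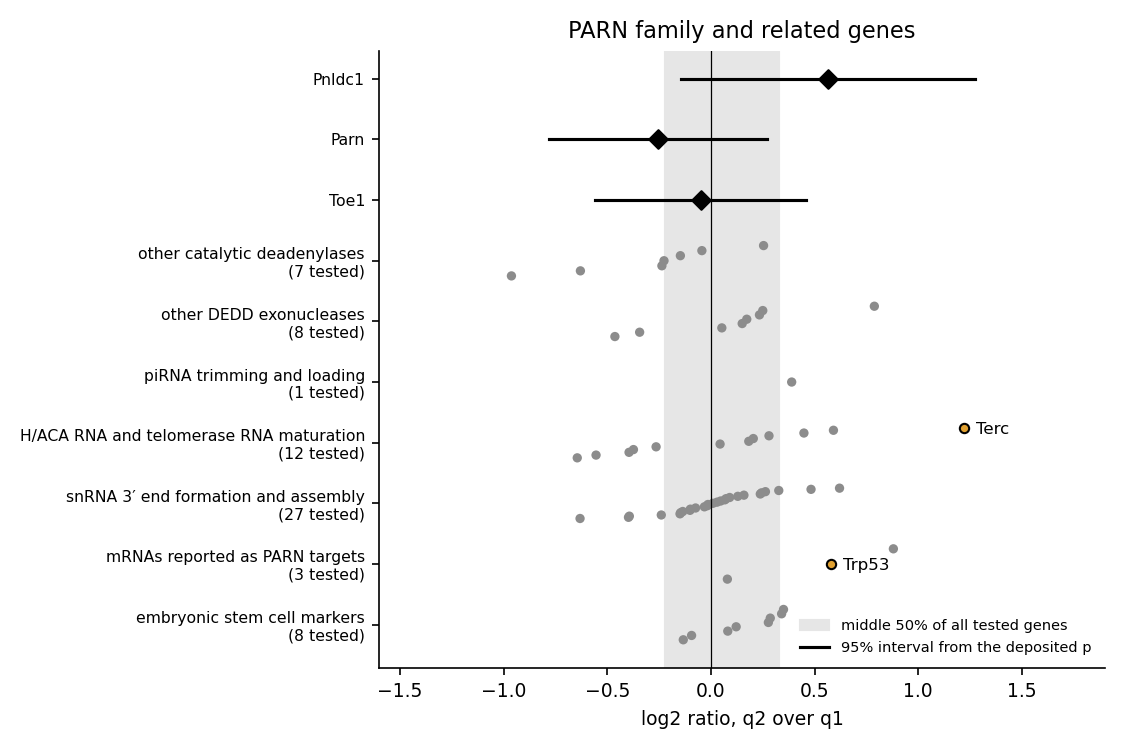
Log2 ratio of q2 over q1 for the 3 PARN-family genes (black diamonds, with the 95% interval read from the deposited p) and for the tested members of each list (points, orange where the authors' test passed), with the middle 50% of all tested genes shaded. The intervals of Pnldc1, Parn and Toe1 all include 0, and Terc at 1.22 and Trp53 at 0.58 are the passing genes.

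The cells carried the markers of embryonic stem cells at levels far above the family. All 8 stem cell markers were tested, and 0 passed the Cuffdiff test, with 1 at an unadjusted p under 0.05 (background 4.25% and 18.8%). Their summed value was 2671 in q1 and 3093 in q2, led by Pou5f1 with 714 and 865. Of 14 markers of fibroblasts, endoderm, mesoderm, trophectoderm and germ cells none was tested, and they summed to 15.9 and 22.3. Col1a2, Postn, Afp and T were at 0 in both conditions, and the highest was Thy1 with 6.17 and 13.0. Ddx4 and Piwil1 are also in the piRNA list. As these are bulk libraries, a difference in the number of cells expressing Pnldc1 and a difference in Pnldc1 RNA per cell cannot be told apart.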

How the data were processed

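RNA of 4 libraries was sequenced once ribosomal RNA, and RNA shorter than 200 nt, had been removed, per the labels' protocols. The deposited file is 1 Cuffdiff table of gene differences, made by the authors. Per the submitters' processing notes the tools were TopHat and Cuffdiff and the builds mm10 and GRCm38.p4, and neither versions nor annotation are given in the sources used. The file headers name no unit for the 2 values of a gene. They were taken as FPKM as made by the authors, Cuffdiff's default, and their low values fell in steps that scale with transcript length: 69.3% (q1) and 66.6% (q2) of them were at most 0.15 from a whole step, where evenly spread values would give 30%. The step was fitted to the same values. The test statistic, a signed score, and the p-values and q-values are the authors', per the file headers. Deposited q-values differed from a Benjamini-Hochberg adjustment over the 5719 tested genes by at most 5.24e-07, and 18203 genes were not tested.

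Log2 ratios (q2 over q1) were computed from the values. The authors' Cuffdiff test at a q under 0.05 is the test of each gene. Intervals assume a normal error matching the deposited p. The calculation was run on simulated data drawn with that same normal error. This checks the arithmetic only, and cannot show whether such an error holds for the Cuffdiff values. Gene models are from GENCODE M21 (GRCm38), where all 3 genes were found by symbol. Similar transcripts were searched with BLAST 2.17.0. Acidic codons were found by in-frame patterns, 1 match per motif and gene. Members and lists were chosen with earlier results of these data known. Besides the 3 genes, the text names the genes of each list that passed, or otherwise the 3 tested ones with the highest mean, the 3 genes nearest to each member, and neighbours. A gene that this rule names is not reported here. Tdrkh, the PIWI genes, Papd5, Dkc1, Nop10, Nhp2, Gar1, Tgs1, Trex2, Isg20, Eri3, Gadd45a, Myc, Cnot6, Cnot7, Coil and the marker genes at 0 were named outside that rule, after their values were seen. Python 3.11.15, numpy 2.4.6 and scipy 1.17.1 were used.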

Additional observations from a re-analysis of the deposited data

How the results depend on the processing

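For Pnldc1, Parn and Toe1, 7 alternatives were run each. The log2 ratio kept its sign under the 4 that can change it: a pseudocount of 1, and centring on the median of tested genes (0.06), on the upper quartiles of values above 0 (0.03) or, chosen after seeing the data, of tested genes (0.14). These leave the deposited q as it is. None of the 3 genes passed under the other 3, which leave the ratio as it is: a q under 0.10, and adjustment over genes with a mean of 1 or more or over the 5257 protein-coding genes. The ranges were 0.43 to 0.56 for Pnldc1, -0.39 to -0.25 for Parn and -0.19 to -0.05 for Toe1. All 5719 tested genes had a mean of 1 or more, so that filter left out none. At a q under 0.01 the number of genes that passed was 107, and at a q under 0.10 it was 421, with none of the 3 genes in either. Of the 2 list genes that passed, 1 did so at a q under 0.01 (Terc), and at a q under 0.10 Nop10 joined them. No paired analysis was possible because the table holds 1 value per condition and no values of single libraries; for the same reason no replicate could be left out. If the values are FPKM, Pnldc1 rests on about 45.9 reads in q1 and 78.6 in q2, and whether depth kept it from passing was not tested.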
